A study of Saccharomyces cerevisiae with 48 samples.

Results

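Septins are GTP-binding proteins that join into rods and filaments, and in budding yeast they form the ring at the bud neck that marks where the cell will divide. The rods are built from Cdc3, Cdc10, Cdc12 and, at their ends, either Cdc11 or its relative Shs1. Elm1, Gin4 and Kcc4 are protein kinases that sit at the bud neck and help the septin ring to assemble, and Gin4 and Kcc4, like their relative Hsl1, belong to the Nim1 family. The 8 genes of these proteins were taken as a group by name, among 5449 yeast genes with a probe set. They are the septin genes CDC3 (YLR314C), CDC10 (YCR002C), CDC11 (YJR076C), CDC12 (YHR107C) and SHS1 (YDL225W), and the kinase genes GIN4 (YDR507C), KCC4 (YCL024W) and ELM1 (YKL048C). Each had 1 probe set, and all were above the background level on all 48 arrays apart from GIN4, which was above it on 46. No gene was left out by a filter on low values.

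The study followed cells with and without active Cdk1, the cyclin-dependent kinase of the cell cycle. Both strains are MATa in the BF264-15DU background. The mutant carries cdc28-4, a temperature-sensitive form of the Cdk1 gene CDC28. The wild type has normal CDC28 and the bar1 genotype, which the mutant's label does not name. Both were grown in rich medium (YEPD) at 25 °C. Small daughter cells were collected by elutriation, which separates cells by size, and put into YEPD at 37 °C at 0 min. The cdc28-4 strain was sampled every 20 min in 2 courses. Course 1 holds 15 arrays and ended at 290 min, and course 2 holds 18 and ended at 350 min, both starting at 10 min. Wild type was sampled every 15 min in 1 course of 15 arrays from 15 to 225 min. Thus 15 times hold a pair of cdc28-4 arrays, and every wild-type time is a single array. Nothing in the labels says more of how the cultures of the courses were kept apart.

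Some facts of the arrays bear on all that follows. Per the labels, samples 1 to 33 and 34 to 48 were labelled with different kits, and in listing order these are the cdc28-4 and the wild-type arrays, so that a difference in level between strains cannot be told apart from the kit. The log2 ratio of the 3′ over the 5′ probe sets of 7 control genes, which moves with RNA and labelling quality, lay from 0.52 to 0.93 in cdc28-4 and from 1.13 to 1.42 in wild type. BAR1 was under background on all 15 wild-type arrays (7.38 to 7.69) and lay from 10.99 to 12.88 in cdc28-4, and CDC28 lay from 10.55 to 11.25 in wild type and from 11.32 to 12.25 in cdc28-4. Of the MATa markers, STE2, MFA1, MFA2, STE6 and ASG7 were above background on all arrays. Of the MATalpha markers, MF(ALPHA)1 and MF(ALPHA)2 were above it on 0 wild-type arrays and on 24 and 33 of the 33 cdc28-4 arrays, STE3 on 3 and 31, and SAG1 on all. The array of course 2 at 170 min stood apart: the SD over genes of the difference between courses was 0.315 at 170 min and from 0.0623 to 0.148 at the other 14 shared times. At 170 min course 2 exceeded course 1 by 0.40 for CDC3, 0.50 for CDC11, 0.29 for CDC12, 0.39 for SHS1, 0.27 for GIN4 and 0.24 for KCC4, while CDC10 was lower by -0.60 and for ELM1 the difference was -0.0074. This array also enters the spread of the whole fit, so calls that change without it are given beside each result.

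Values are log2 intensities and SE is limma's standard error. The words rise, fall and differ are kept for an adjusted p under 0.05. The spread of a gene between the courses, the SD within pairs of arrays at 15 times, was 0.0513 for ELM1, 0.0833 for CDC12, 0.0941 for SHS1, 0.0945 for CDC3, 0.104 for GIN4, 0.115 for KCC4, 0.183 for CDC11 and 0.186 for CDC10, with a median of 0.0950 over all genes. CDC10 lay lower in course 2 at every shared time, by a mean of -0.20 over the 14 times without 170 min, and CDC11 higher by a mean of 0.16. Probe sets differ in how strongly they bind, so levels are compared within a gene and never between genes.

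Over the courses, GIN4 and KCC4 had the widest ranges of the members without the 170 min array. RNA came from whole cultures, so fewer cells with a transcript and less of it per cell cannot be told apart. In wild type GIN4 ran from 8.33 at 15 min to 11.12 at 90 min with a median of 10.7. The 15 min value was under that array's background of 8.52, so the range has only a lower bound. In cdc28-4 it ran from 8.40 at 10 min to 10.79 at 270 min in course 1 (median 10.48). In course 2 it ran from 8.31 at 10 min to 10.88 at 170 min (median 10.44), or 10.81 at 350 min without the 170 min array. The 2 courses started low and ended high, and both lay under the wild-type peak. KCC4 ran from 8.59 to 10.08 in wild type (median 9.80), from 9.14 to 10.16 in course 1 (median 9.97) and from 9.05 to 10.3 in course 2 (median 9.90), or 9.98 without 170 min. ELM1 had a small range of 0.40 in wild type, 0.29 in course 1 and 0.52 in course 2, which exceeded those of 11.7%, 6.24% and 22.3% of genes.

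**Figure D1:**
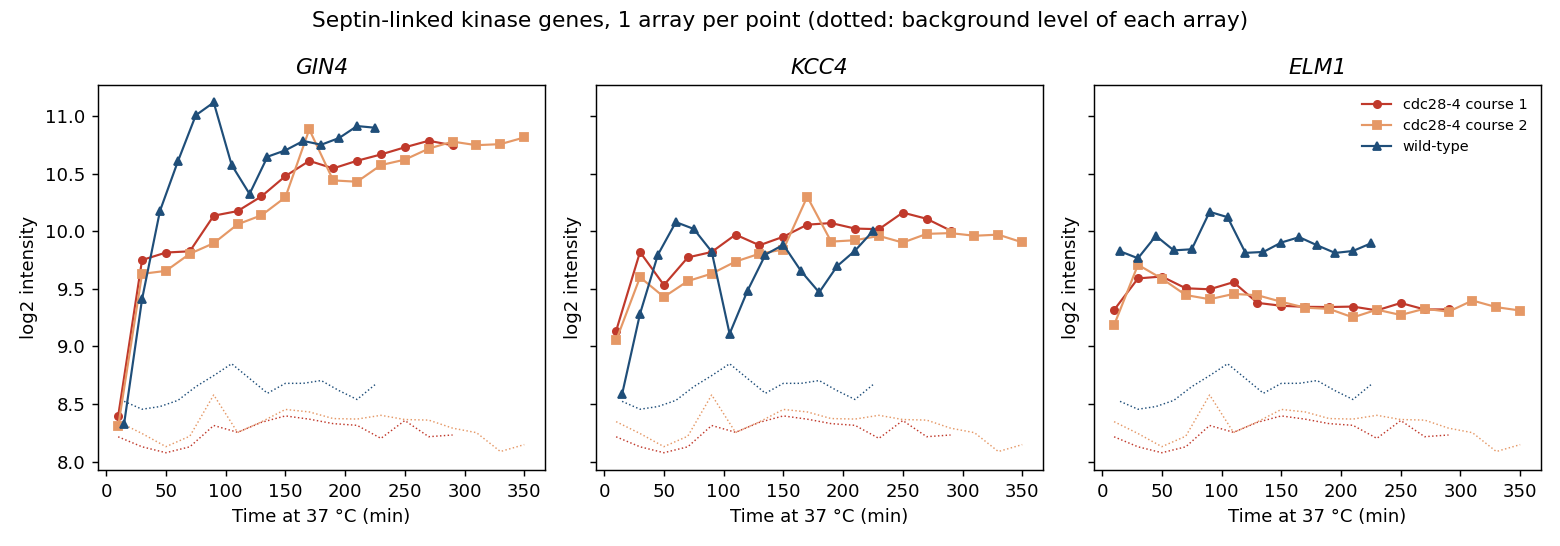
Log2 intensity of the kinase genes GIN4, KCC4 and ELM1 against time at 37 °C, with 1 point per array, lines joining the arrays of a course, and dotted lines for the background level of each array. GIN4 reached 11.12 at 90 min in wild type and then dipped to 10.32 at 120 min, while in both cdc28-4 courses it climbed with small dips once the high 170 min array of course 2 is set aside, and KCC4 had highs at 60 and 150 min and lows at 105 and 180 min in wild type.

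Among the septin genes, CDC3 ran from 10.86 at 60 min to 11.72 at 225 min in wild type (median 11.27). It ran from 10.82 at 10 min to 11.57 at 270 min in course 1 (median 11.32), and from 10.81 at 10 min to 11.52 at 350 min in course 2 without 170 min (median 11.36). SHS1 ran from 10.81 at 60 min to 11.52 at 195 min in wild type (median 11.11), but stayed between 10.54 and 10.92 in both cdc28-4 courses from 30 min on, apart from 11.16 at 170 min in course 2. Apart from those at 15, 60 and 75 min, each wild-type array of SHS1 was above every cdc28-4 array other than that at 170 min. CDC10 moved from 11.67 at 15 min to 12.25 at 60 min in wild type and lay between 12.25 and 12.48 from then on, whereas in cdc28-4 it lay from 11.60 to 11.86 in course 1 and from 11.43 to 11.76 in course 2 without its low of 11.13 at 170 min. CDC11 ran from 10.25 at 45 min to 11.17 at 180 min in wild type (median 10.82), with highs of 11.09 at 105 min and 11.17 at 180 min and 10.82 at 135 min between them. In cdc28-4 it lay from 9.85 to 10.3 in course 1 and from 9.96 to 10.4 in course 2 without 170 min, and course 2 was above course 1 at every shared time from 110 min on, with 10.32 against 10.09 at 130 min and 10.34 against 9.88 at 250 min. CDC12, in contrast, was lower in wild type than in cdc28-4 from 30 to 150 min, with 10.11 at 45 min as its lowest and 10.73 at 180 min as its highest wild-type value.

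**Figure D2:**
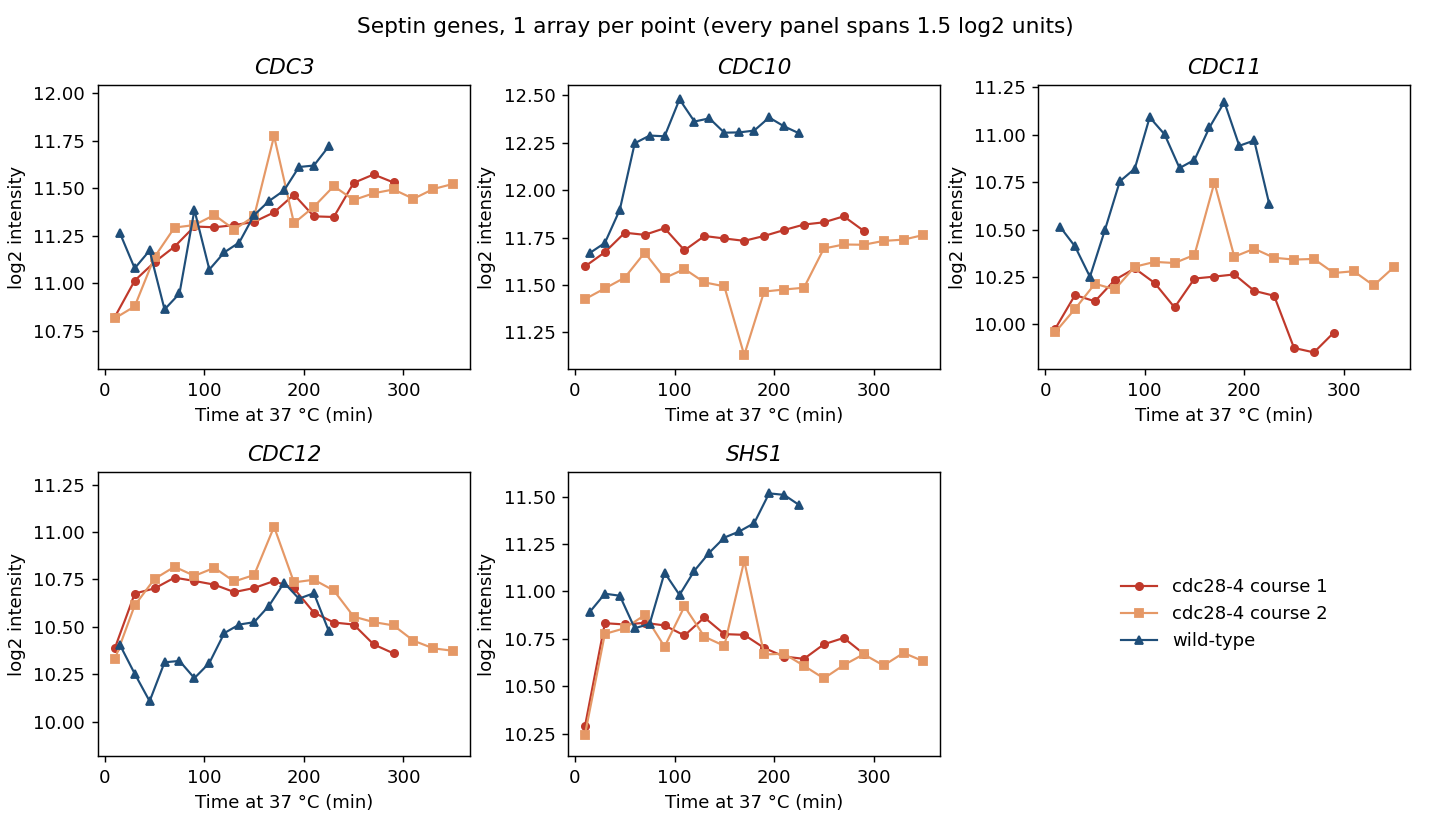
Log2 intensity of the 5 septin genes against time at 37 °C, 1 point per array, with lines joining the arrays of a course; each panel spans 1.5 log2 units. SHS1 went from 10.81 at 60 min to 11.52 at 195 min in wild type and showed no such climb in cdc28-4, and the course 2 array at 170 min is off the line of its neighbours in all 5 panels.

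The mean levels over the 4 times sampled in both strains (30, 90, 150 and 210 min) are given as values, with no test, because of the kits. Wild type, then cdc28-4 courses 1 and 2, had 12.16, 11.75 and 11.5 for CDC10, 10.77, 10.22 and 10.29 for CDC11, 11.22, 10.77 and 10.72 for SHS1, and 9.92, 9.45 and 9.44 for ELM1. They had 11.36, 11.25 and 11.24 for CDC3, and 10.54, 10.24 and 10.06 for GIN4. CDC12, at 10.42, 10.67 and 10.73, and KCC4, at 9.71, 9.90 and 9.75, were the members with wild type lowest. For KCC4 wild type was nearer to course 2 than the courses were to each other.

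The test of any change with time in cdc28-4 (limma F test over 15 shared times, pairs of arrays) passed for 6 of the 8 members, against 84.5% of all genes. The kinase genes all passed, namely GIN4 (F = 79.6, adjusted p = 2.18e-12), KCC4 (F = 12.1, adjusted p = 3.24e-06) and ELM1 (F = 7.34, adjusted p = 0.000104). Of the septin genes CDC3 (F = 10.4, adjusted p = 9.81e-06), CDC12 (F = 6.12, adjusted p = 0.000336) and SHS1 (F = 5.85, adjusted p = 0.000446) passed. The median F was 6.73 over the members and 8.14 over all genes, so the share of members that changed is near the background. All 6 also passed without the course 2 array at 170 min. CDC10 (F = 0.60, adjusted p = 0.845) and CDC11 (F = 1.14, adjusted p = 0.405), the members with the largest spread between courses, did not pass. With both the course as a block and the 170 min array left out, a setting chosen after seeing the data, CDC10 passed (adjusted p = 0.0180) and CDC11 did not (adjusted p = 0.151). In wild type the spread of the single arrays was assumed to be that of the cdc28-4 pairs. There 7 of 8 members passed against 72.8% of all genes, led by GIN4 (F = 51.6, adjusted p = 1.41e-10) and KCC4 (F = 13.1, adjusted p = 2.99e-06). CDC10 did not pass (adjusted p = 0.0875), but did with the course as a block (adjusted p = 7.97e-05), with quantile normalization (adjusted p = 0.0466) and with either 170 min array left out (adjusted p = 0.0224). CDC11 passed (adjusted p = 0.0369). It was lost with arrays centred on their median (adjusted p = 0.0699), with quantile normalization (adjusted p = 0.0589) and without 1 cdc28-4 array of either course at 10 min (adjusted p = 0.0501), 30 min (adjusted p = 0.0516) or 70 min (adjusted p = 0.0502).

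Soon after the move to 37 °C, most members stood low and then rose. In courses 1 and 2, GIN4 stood at 8.40 and 8.31 at 10 min, at 9.75 and 9.63 at 30 min, and at 10.14 and 9.90 at 90 min. The pairs at 10 and 90 min were far apart, and the rise from 10 to 90 min was 1.67 (SE 0.101, adjusted p = 1.66e-11). Of its 2 arrays at 10 min, that of course 2 was under its background of 8.35 and that of course 1 above its background of 8.22. With the former set to background the rise was at least 3.13-fold. KCC4 went from 9.14 and 9.05 to 9.82 and 9.63, a rise of 0.63 (SE 0.110, adjusted p = 4.09e-05). SHS1 rose from 10.29 and 10.25 to 10.82 and 10.71, by 0.50 (SE 0.0927, adjusted p = 8.62e-05), and had reached that level by 30 min, at 10.83 and 10.78. CDC3 rose by 0.48 (SE 0.0930, adjusted p = 0.000120) and CDC12 by 0.40 (SE 0.0841, adjusted p = 0.000320), with the groups of arrays apart in each case. ELM1 rose by 0.20 (SE 0.0606, adjusted p = 0.00600), from 9.32 and 9.19 to 9.50 and 9.41, after a high of 9.59 and 9.71 at 30 min.

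In all, 6 of 8 members were higher at 90 than at 10 min and 0 lower by limma, while 40.0% of all genes were higher, 29.7% lower and 69.7% either; the median change was 0.44 over the members and 0.084 over all genes, the latter being 0.013 with median centring and 0.0081 with fission yeast centring (each array centred on its fission yeast probe sets). The call for ELM1 was lost with arrays centred on their median (0.13, adjusted p = 0.0554), with quantile normalization (0.059, adjusted p = 0.399), with fission yeast centring (0.13, adjusted p = 0.142), and when the array of course 1 at 90 min (0.16, adjusted p = 0.0719) or of course 2 at 10 min (0.14, adjusted p = 0.105) was left out. CDC11 changed by 0.33 (SE 0.167, adjusted p = 0.0841) and passed with the course as a block (adjusted p = 0.0193), and CDC10 changed by 0.16 (SE 0.170, adjusted p = 0.422). The 3′ to 5′ ratio moved from 0.67 to 0.74 in course 1 and from 0.53 to 0.57 in course 2 over the same times, and its part in these changes was not tested. In wild type, GIN4 at 15 min (8.33) was under background (8.52) and at 90 min was at least 6.04-fold higher, and KCC4 went from 8.59 to 9.82, or 2.36-fold. The other members changed less there between these single arrays. The 90 min value was 1.53-fold the 15 min value for CDC10, 1.27 for ELM1 and 1.24 for CDC11. It was 1.15-fold for SHS1, 1.09 for CDC3 and 0.88 for CDC12, which was thus lower at 90 min.

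Late in cdc28-4, the members went different ways. GIN4 rose further. In course 1 it was at 10.14 and 10.18 at 90 and 110 min, then at 10.79 and 10.75 at 270 and 290 min, and in course 2 these values were 9.90, 10.06, 10.72 and 10.78. All late arrays were above all early ones, and the rise was 0.69 (SE 0.0711, adjusted p = 1.44e-07), or 0.61 and 0.77 in the single courses. CDC12 fell, from a mean of 10.73 to 10.38 in course 1 and from 10.79 to 10.52 in course 2, by 0.31 on the log2 scale (-0.31, SE 0.0595, adjusted p = 0.000192). It was at 10.37 at 350 min in course 2, near its 10 min level of 10.33. ELM1 also fell, by 0.16 (-0.16, SE 0.0429, adjusted p = 0.00334), a call lost with fission yeast centring (-0.11, adjusted p = 0.0824).

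CDC3 rose by 0.20 (SE 0.0658, adjusted p = 0.0132) and KCC4 by 0.23 (SE 0.0778, adjusted p = 0.0175). The call for CDC3 was lost with the 270 min array of course 1 left out (0.18, adjusted p = 0.0554). That for KCC4 was lost without the same array (0.20, adjusted p = 0.0724) and without the course 2 arrays at 90 min (0.18, adjusted p = 0.0863) or 110 min (0.17, adjusted p = 0.0999). SHS1 changed by -0.13 (SE 0.0655, adjusted p = 0.105) and passed without the 170 min array of course 2 (adjusted p = 0.0236). CDC11 changed by -0.18 (SE 0.118, adjusted p = 0.203), with -0.35 in course 1 and -0.0088 in course 2, and passed with the 270 min array of course 2 left out (-0.30, adjusted p = 0.0391). CDC10 changed by 0.12 (SE 0.120, adjusted p = 0.421). In all, 3 members rose and 2 fell, while 27.2% of all genes rose and 29.1% fell, 56.2% together. That split over all genes, 1480 and 1585, became 1610 and 1460 with median centring and 1720 and 1180 with fission yeast centring. With quantile normalization it was 1423 and 1652. The median change was -0.0052 over the members and -0.017 over all genes. The 3′ to 5′ ratio was also higher late, with 0.74 at both early times and then 0.86 and 0.83 for course 1, and with 0.57, 0.55, 0.70 and 0.77 for course 2. Its part was not tested.

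**Figure D3:**
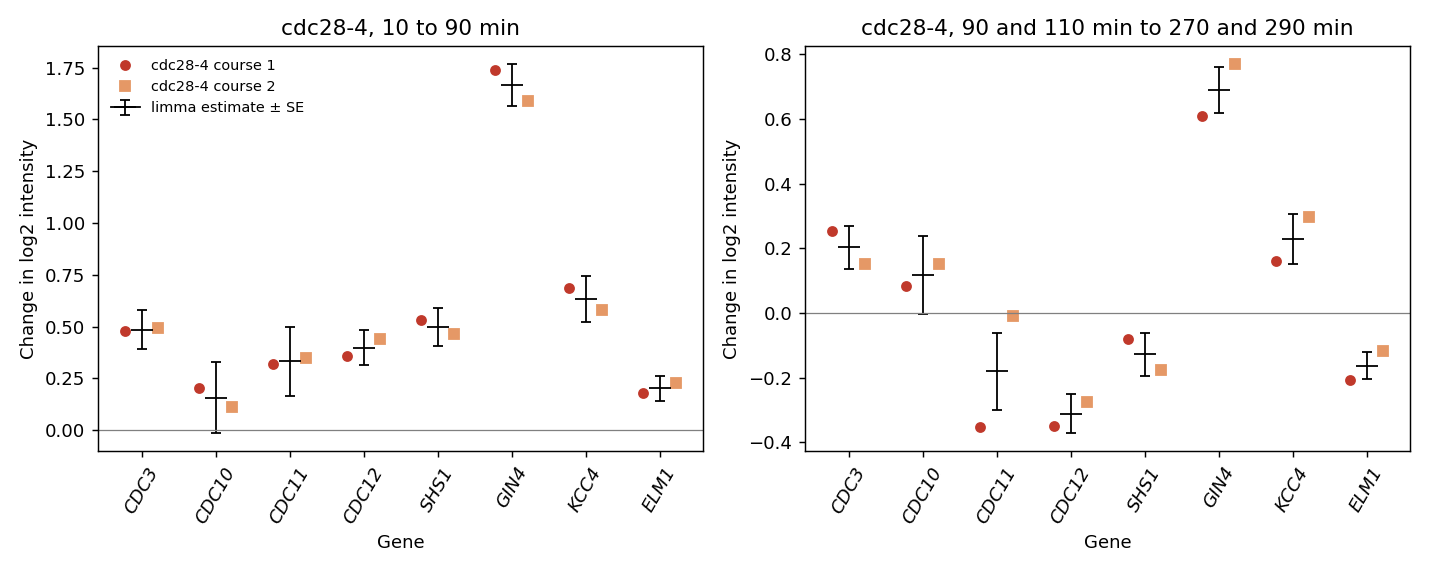
Change in log2 intensity of the 8 members in cdc28-4 from 10 to 90 min (left) and from 90 and 110 min to 270 and 290 min (right), as 1 point per course and the limma estimate with its SE. GIN4 had the largest change of the members in both panels (1.67 and 0.69), and CDC12 fell late in both courses.

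The comparison of the strains over time asked whether the time course of these transcripts differs between wild type and cdc28-4. A constant offset between kits cancels in it, but a kit or RNA quality effect that changes with time or level does not. Cdk1 activity, the bar1 genotype and the kit go together with strain here, so they cannot be told apart. Single wild-type arrays were assumed to vary like the cdc28-4 pairs. Over the 4 matched times, the change differed between strains for GIN4 (F = 21.1, adjusted p = 8.51e-05), ELM1 (F = 11.7, adjusted p = 0.00152), SHS1 (F = 6.36, adjusted p = 0.0159) and CDC12 (F = 5.16, adjusted p = 0.0310), thus for 4 of 8 members against 33.8% of all genes (median F 3.98 and 2.66). The call for CDC12 was lost with arrays centred on their median (adjusted p = 0.0717), with quantile normalization (adjusted p = 0.0537), and with 1 array omitted, namely that of course 1 at 90 min (adjusted p = 0.0503) or 210 min (adjusted p = 0.1002) or of course 2 at 90 min (adjusted p = 0.0583). CDC10 (adjusted p = 0.340) and KCC4 (adjusted p = 0.139) passed with the course as a block, with adjusted p of 0.0130 and 0.0239, in a fit that called 2740 of all genes instead of 1841. CDC3 (adjusted p = 0.691) and CDC11 (adjusted p = 0.717) passed in neither.

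GIN4 showed the largest difference among the members. From 30 to 90 min it went from 9.41 to 11.12 in wild type, a change of 1.71, and changed by 0.38 and 0.27 in the cdc28-4 courses. The strains differed by 1.38 in this change (SE 0.174, adjusted p = 1.6e-05). From 90 to 150 min GIN4 went down by 0.42 in wild type (-0.42) and up by 0.34 and 0.40 in the cdc28-4 courses, a difference of -0.79 (SE 0.174, adjusted p = 0.0189). The call was lost when the array of course 1 at 150 min (-0.69, adjusted p = 0.0869) or of course 2 at 90 min (-0.67, adjusted p = 0.0663) was left out, and with fission yeast centring (-0.67, adjusted p = 0.0520). ELM1 changed by 0.40 from 30 to 90 min in wild type and by -0.094 and -0.30 in cdc28-4, a difference of 0.60 (SE 0.105, adjusted p = 0.000487). Its wild-type values at 90 and 105 min, 10.17 and 10.12, were its 2 highest, and its other wild-type values lay from 9.77 to 9.96. The single wild-type array at 90 min enters both intervals. Its 3′ to 5′ ratio was 1.32, against 1.13 at 75 min, 1.21 at 105 min and 1.19 at 150 min. At 75, 90 and 105 min CDC3 stood at 10.95, 11.39 and 11.07 in wild type, and CDC10 at 12.29, 12.28 and 12.48. The part of this array in the differences was not tested.

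KCC4 had the same direction of difference from 30 to 90 min, 0.54 in wild type against 0.00032 and 0.031 in cdc28-4, without passing (0.52, SE 0.191, adjusted p = 0.0607). It passed with the course as a block (adjusted p = 0.00908), with arrays centred on their median (adjusted p = 0.0441), and without the array of course 2 at 170 min (adjusted p = 0.0402) or 30 min (adjusted p = 0.0361) or that of course 1 at 90 min (adjusted p = 0.0460). CDC10 changed by 0.56 in wild type against 0.13 and 0.055, and passed only with the course as a block (0.47, SE 0.294, adjusted p = 0.301, and 0.0253 with the block). Thus 2 of 8 members were called for this interval, against 19.3% of all genes, with 10.8% of all genes higher in wild type and 8.48% lower (591 and 462 genes, or 413 and 574 with fission yeast centring). With the block, 4 of 8 members and 1571 of the 5449 genes were called. The median difference was 0.35 over the members and -0.022 over all genes. For the remaining septin genes the 95% intervals of the difference ran from -0.39 to 0.29 for CDC3, from -0.38 to 0.83 for CDC11, from -0.44 to 0.17 for CDC12 and from -0.19 to 0.49 for SHS1. From 30 to 90 min the 3′ to 5′ ratio moved from 1.18 to 1.32 in wild type, from 0.67 to 0.74 in course 1 and from 0.53 to 0.57 in course 2, and its part was not tested.

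From 30 to 210 min, SHS1 and CDC12 went up in wild type and moved less in cdc28-4. At 30, 90, 150 and 210 min SHS1 was at 10.99, 11.10, 11.28 and 11.51 in wild type, and its cdc28-4 means were 10.80, 10.76, 10.74 and 10.66. CDC12 went from 10.25 to 10.23, 10.52 and 10.68 in wild type, and from 10.64 to 10.76, 10.74 and 10.66 in cdc28-4. Because of the kits, these values cannot show whether the strains moved apart or closer together in level. For the single intervals neither gene passed. From 90 to 150 min, GIN4 was the 1 member of 8 that passed (2.46% of all genes, 1.17% higher in wild type and 1.28% lower). From 150 to 210 min limma called 0 of 8 (3.06% of all genes, 1.10% higher and 1.96% lower), with 0 of 8 at an unadjusted p under 0.05, and the largest differences were 0.30 for SHS1 (SE 0.161, adjusted p = 0.348) and 0.23 for CDC12 (SE 0.146, adjusted p = 0.457).

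**Figure D4:**
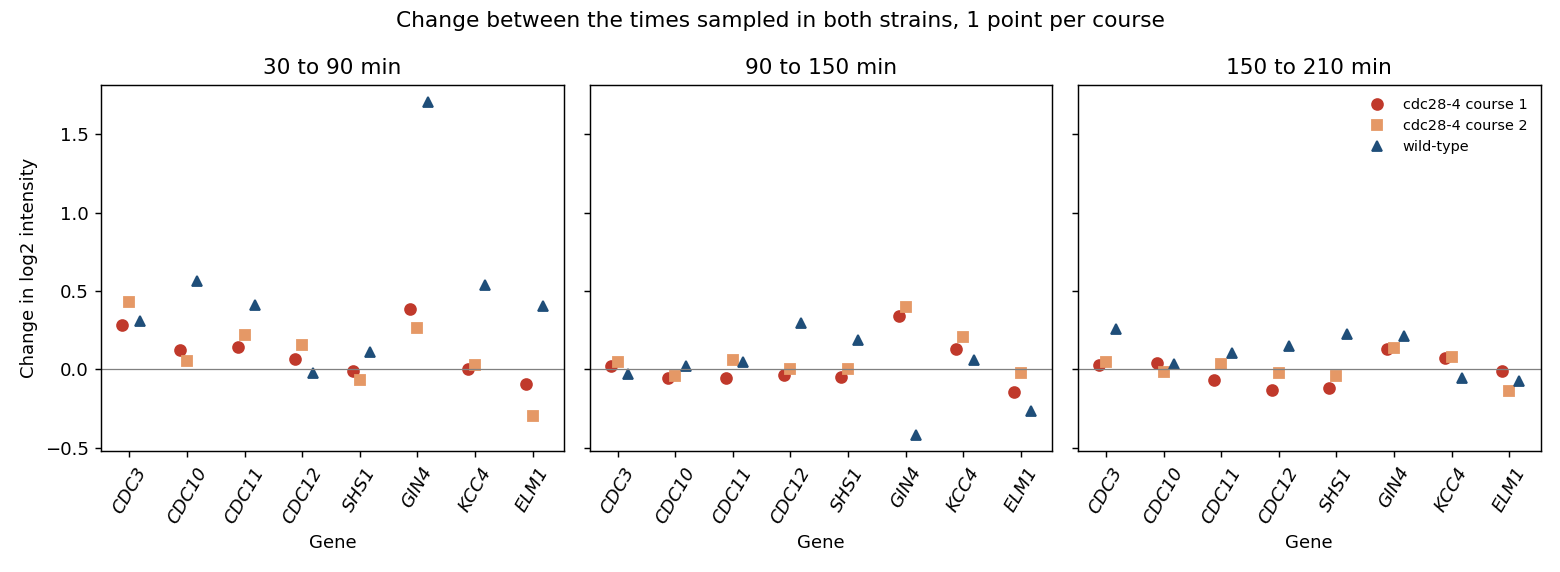
Change in log2 intensity of the 8 members over the 3 intervals between times sampled in both strains, 1 point per course. From 30 to 90 min GIN4 changed by 1.71 in wild type and by 0.38 and 0.27 in cdc28-4, and from 90 to 150 min the wild-type point (-0.42) lies below 0 and both cdc28-4 points above it.

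Wild-type KCC4 and GIN4 each went up and down within the course. KCC4 climbed from 8.59 at 15 min to 10.08 at 60 min and was down at 9.11 at 105 min. It stood at 9.88 at 150 min and 9.47 at 180 min, and ended at 10.0 at 225 min. These swings are wider than its spread between the cdc28-4 courses (SD 0.115), but they rest on 1 course. The lows at 15 and 105 min lay close above the backgrounds of their arrays, 8.52 and 8.85. GIN4 peaked later, at 11.12 at 90 min, was at 10.32 at 120 min, and then moved between 10.65 and 10.91 from 135 min on. In cdc28-4, KCC4 stood at 9.82 and 9.60 at 30 min, at 9.53 and 9.43 at 50 min and later stayed between 9.53 and 10.16 in course 1 and, without 170 min, between 9.43 and 9.98 in course 2. Periodicity in wild type was tested at 82 min, the period that best suited 64 cell cycle genes on the same arrays. No member passed by limma, as against 0.0551% of all genes (3 genes), with 2 of 8 at an unadjusted p under 0.05: KCC4, with a fitted peak-to-trough size of 0.75 (SE 0.168, adjusted p = 0.162), and CDC11 with 0.34 (SE 0.0805, adjusted p = 0.191). In cdc28-4 the best period was 160 min, the end of the range searched, so that no period was settled. No member passed there (0.734% of all genes did), with 1 of 8 at an unadjusted p under 0.05, CDC10 (0.17, SE 0.0432, adjusted p = 0.0699). The fitted size for GIN4 was 0.51 (SE 0.283) at 82 min in wild type and 0.10 (SE 0.128) at 160 min in cdc28-4. These sizes belong to unlike periods, so they cannot be compared, and the difference was not tested.

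Among themselves, the profiles fell in parts. With each course centred on its own mean, Pearson's r between GIN4 and KCC4 was 0.80 over the 15 wild-type arrays and 0.96 over the 32 cdc28-4 arrays without the 170 min array of course 2. For CDC3 and SHS1 it was 0.92 in wild type and 0.26 in cdc28-4, and for CDC12 and SHS1 0.79 and 0.69. In cdc28-4 CDC3 went with GIN4 (r = 0.92, against 0.26 in wild type). ELM1 reached at most 0.33 in wild type, with GIN4, and 0.62 in cdc28-4, with SHS1. These are descriptions, since the arrays are neighbours in time and the genes share their arrays and scaling. Between septin genes, r over all 48 arrays ran from -0.039 for CDC10 and CDC12 to 0.76 for CDC12 and SHS1. Without the 170 min array of course 2, r for these pairs was 0.10 and 0.72. The mean of the 5 septin genes is thus not a profile that all of them share. The genes whose profile over all 48 arrays was most like the mean of the 5 septin genes were REV1, a translesion DNA polymerase gene (r = 0.88), the tropomyosin gene TPM1 (r = 0.87), MIP6 (r = 0.87), the polo kinase gene CDC5 (r = 0.85) and NBA1, whose product sits at the bud neck (r = 0.85). GIN4 was most like RSR1, the bud-site GTPase gene (r = 0.95), RNR1, which encodes ribonucleotide reductase (r = 0.94), and SKG6 (r = 0.94). KCC4 was most like the mismatch repair gene PMS1 (r = 0.92), the replication gene CDC45 (r = 0.91) and ESC8 (r = 0.89). For ELM1 the highest were lower, with HIS1 at 0.75, VTC4 at 0.74 and YEH1 at 0.72. Over the 15 wild-type arrays alone these were 0.42, 0.49 and 0.57, while the genes named for the septin mean, GIN4 and KCC4 had 0.88 to 0.97.

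Genes that work with the septins at the bud neck differed between the strains as well. Of 20 partner genes, 11 differed in the change from 30 to 90 min, 10 higher in wild type and 1 lower (median 0.33, against -0.022 over all genes, of which 10.8% were higher and 8.48% lower). Over the other scalings 8 to 10 were higher and 1 lower. BUD4, whose product ties the bud-site machinery to the septins, changed by 1.65 in wild type and 0.048 in cdc28-4, a difference of 1.61 (SE 0.192, adjusted p = 8.45e-06). NIS1, a bud-neck protein gene, changed by 0.79 and -0.59 (difference 1.39, SE 0.200, adjusted p = 7.01e-05), and BUD3, a partner of BUD4, differed by 1.12 (SE 0.230, adjusted p = 0.00185). HSL1, the third Nim1-family kinase gene, changed by 1.17 against 0.062 (difference 1.11, SE 0.302, adjusted p = 0.0134). GIC1, the gene of a Cdc42 effector, differed by 1.18 (SE 0.224, adjusted p = 0.000947), but was under background on both cdc28-4 arrays at 30 and at 90 min. BEM1, the polarity scaffold gene, was the one with the lower change in wild type (-0.44, SE 0.138, adjusted p = 0.0309).

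**Figure D5:**
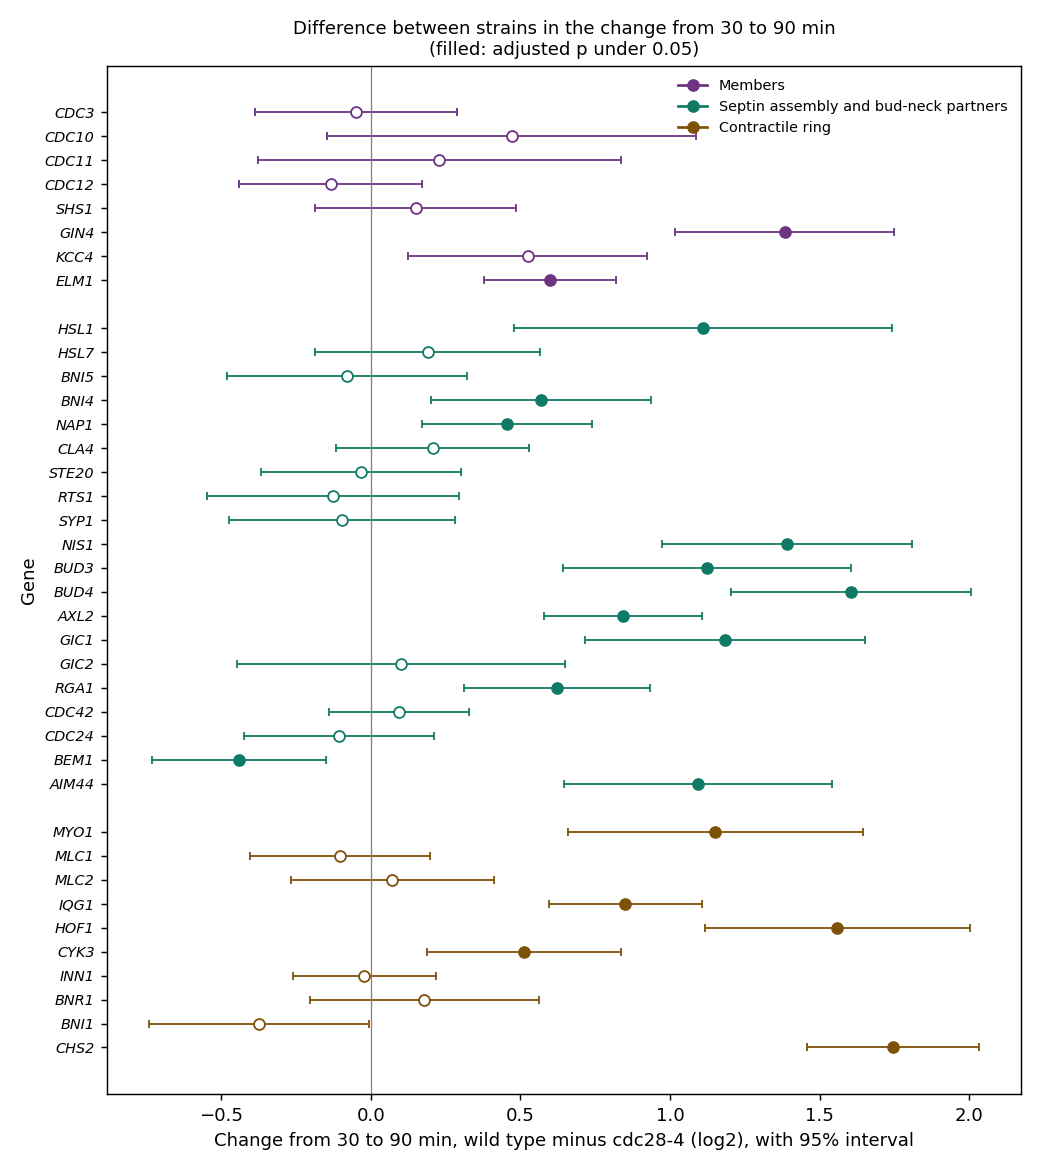
Difference between strains (wild type minus cdc28-4) in the log2 change from 30 to 90 min, with its 95% interval from limma, for the 8 members, 20 partner genes and 10 contractile ring genes; filled points had an adjusted p under 0.05. GIN4 (1.38) and ELM1 (0.60) are filled, all 5 septin genes are open, and 11 partner and 5 ring genes are filled.

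Of 10 genes of the contractile ring, which closes the neck at division, 5 differed, all higher in wild type (median 0.35), against the same 10.8% of all genes. The septum chitin synthase gene CHS2 differed by 1.75 (SE 0.137), HOF1 by 1.56 (SE 0.212), the myosin gene MYO1 by 1.15 (SE 0.235), IQG1 by 0.85 (SE 0.122) and CYK3 by 0.51 (SE 0.155). HOF1 was under background on both cdc28-4 arrays at 90 min. Of 7 genes of the morphogenesis checkpoint, which holds back mitosis when budding or the septin ring is disturbed, 4 differed, all higher in wild type, or 2 with quantile normalization or fission yeast centring. They were SWE1, the gene of the kinase that restrains Cdk1, by 0.54 (SE 0.165, adjusted p = 0.0257), CDC5 by 1.01 (SE 0.106), HSL1 as above and CLB2, a mitotic cyclin gene, by 0.66 (SE 0.225, adjusted p = 0.0449). CLB2 was under background at 30 min in wild type. Of the 4 genes SAK1, TOS3, SNF1 and CLA4, whose kinases act on or with Elm1, TOS3 differed, with a lower change in wild type (-0.37, SE 0.126, adjusted p = 0.0448). The sporulation septin genes SPR3 and SPR28 were under background on all arrays of both strains at 30 and 90 min, so that the call for SPR28 in this interval is of no measured level.

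Late in cdc28-4, 12 of the 20 partner genes rose and 1 fell (median 0.30), against 27.2% of all genes that rose and 29.1% that fell (median -0.017). Median centring and fission yeast centring each turned that split over all genes, as given above. HSL1 rose from 10.1 to 11.74, by 1.64 (SE 0.123, adjusted p = 2.56e-09). AXL2, a bud-site landmark gene, rose by 1.55 (SE 0.0515, adjusted p = 2.22e-14), GIC2 by 0.55 (SE 0.107), and CLA4 by 0.45 (SE 0.0628). GIC1 also passed, but was under background on both arrays at 90 min, so no size is given. NAP1 was the one that fell (-0.15, SE 0.0557), while 0 partner genes fell with median or fission yeast centring and 2 with quantile normalization. Of the ring genes 4 rose and 2 fell (median 0.13), with IQG1 at 0.57 (SE 0.0498). Over the other scalings 3 to 5 ring genes rose and 0 to 2 fell. Of the checkpoint genes HSL1, SWE1 (0.66, SE 0.0672) and CDC28 (0.53, SE 0.0762) rose and 0 fell, and the other 4 did not pass, whereas 6 rose with fission yeast centring. From 10 to 90 min, 13 partner genes rose and 2 fell (median 0.50), against 40.0% of all genes that rose and 29.7% that fell (median 0.084). GIC2 rose by 1.43 (SE 0.151), BUD3 by 0.84 (SE 0.133) and CLA4 by 0.80 (SE 0.0888). The genes that fell were SYP1, an endocytic protein gene, at -0.85 (SE 0.104) and BUD4 at -0.40 (SE 0.111).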

How the data were processed

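Budding yeast messenger RNA from 48 samples was measured on single-colour Affymetrix arrays. Per the submitters' processing notes, the authors used the R package affy. Its version and the steps of summary and normalization were not given in the sources used here. Each array's deposited table holds an intensity on a linear scale for every probe set, and log2 of it was taken with nothing added. The platform annotation, with symbols updated through the gene ID, named 1 S. cerevisiae gene for 5498 of the 10928 probe sets, and the highest by mean stood for its gene, which left 5449 genes. Each of the 8 genes described here has 1 probe set. Background is the 95th percentile of 1746 probe sets annotated to another organism (fission yeast), from 8.08 to 8.85 on the log2 scale. Precision is limited by how many arrays there are.

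All tests were two-sided, used R 4.3.3 and limma 3.58.1 on all 5449 genes, and were adjusted by the Benjamini-Hochberg method with a threshold of 0.05. A single fit held 33 means, 1 per strain and time. Its 15 residual degrees of freedom all come from cdc28-4 pairs, and the prior added 4.00. Nothing beyond the term replicate course says that the courses were separate cultures, so the p-values measure the spread between these samples, which may be technical. Periodicity was tested with a cosine and a sine over a quadratic trend of each course. The period was chosen from 50 to 160 min in steps of 2 on 64 measured cell cycle genes, none of them described here as a member. Arrays of 1 course are neighbours in time and not independent, so the periodicity p-values may be too small.

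The study's design text names 2 replicate courses, so the replicate number marks a course and pairs the arrays. Over 105 pairs of times the differences between courses correlated over genes with a median r of 0.47 and a lowest of 0.0051. Fits with the course as a block, other scalings, an added constant of 50, a filter at background, the mean of probe sets, a variance trend and single omitted arrays were alternatives. The fits were also run on simulated data with independent noise on each array. That simulation held no course effect and no dependence in time, so it cannot show how the fits behave under either. Genes named beside the 8 members are at most 5 per list and comparison, chosen from those with the largest change past the threshold, any gene counted in a group of 5 or fewer, and those most alike in pattern by Pearson's r. The members and lists were chosen with earlier results of these data known. Promoter and protein sequences were not used here.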

Additional observations from a re-analysis of the deposited data

Results flagged for a closer look

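The change over time differed between wild type and cdc28-4 for 4 members by limma's interaction test over 30, 90, 150 and 210 min, with F of 21.1 for GIN4 (adjusted p = 8.51e-05), 11.7 for ELM1 (adjusted p = 0.00152), 6.36 for SHS1 (adjusted p = 0.0159) and 5.16 for CDC12 (adjusted p = 0.0310). By interval, the difference from 30 to 90 min was 1.38 for GIN4 and 0.60 for ELM1, and that from 90 to 150 min was -0.79 for GIN4 (adjusted p = 0.0189). Each rests on 1 wild-type array per time. The call for CDC12 was lost in 5 of 17 alternatives, and that for GIN4 from 90 to 150 min in 3 of 13. No group of 4 or more samples was available for a check of single outlying samples.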

How the results depend on the processing

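Of 80 results on single members, 55 kept their direction and their side of the threshold under every alternative run. Of 1592 alternative values, 26 lost a call, 18 gained one and 15 changed sign, and those that changed sign were of values not called. With the course as a replicate block, 4 members instead of 2 were called from 30 to 90 min. The calls over all genes went from 1053 to 1571 in that interval, from 134 to 454 from 90 to 150 min and from 167 to 570 from 150 to 210 min; beyond the gains named in the report for CDC10, CDC11 and KCC4, the block changed no call of a member. With arrays centred on the other-organism probe sets, chosen after seeing the data, 0 members were called from 90 to 150 min and 90 genes from 150 to 210 min, CDC3 and KCC4 turned to 0.055 and 0.0059 from 90 to 150 min, and ELM1 to 0.016 from 150 to 210 min. Of all genes, that scaling called 413 higher and 574 lower from 30 to 90 min, against 591 and 462 as deposited, and moved the median gene from -0.022 to -0.10. From 150 to 210 min, CDC10 turned to -0.036 with median centring and ELM1 to 0.0072 with quantile normalization. Wild-type periodicity, 3 genes as reported, gave 0 genes with median centring, with a linear trend or with a period 10 min shorter, 1 with quantile normalization, 7 with a period 10 min longer and 54 over the times after the shift response. For cdc28-4, 40 genes as reported became 23 with median centring, 0 with a linear trend, 3 with a period 10 min shorter, 793 with one 10 min longer and 1021 over the later times, and in the last 2 settings 1 member, CDC10, was called. Leaving out single arrays or a course gave 3 to 6 members called late in cdc28-4, 0 to 1 member and 65 to 325 genes called from 90 to 150 min, 67 to 481 genes from 150 to 210 min, 0 to 8 genes periodic in wild type and 0 to 76 in cdc28-4. The highest counts for both intervals and for cdc28-4 periodicity came without the course 2 array at 170 min, that for wild type came without 15 min, and the lowest came without a 150 min array for both intervals and without course 1 for cdc28-4 periodicity. In such omissions the estimates, none of them called, ran from -0.12 to 0.018 for CDC3 from 30 to 90 min, from -0.063 to 0.20 for CDC10 and from -0.020 to 0.10 for CDC11 from 90 to 150 min, and from -0.14 to 0.18 for CDC10, from -0.015 to 0.17 for GIN4 and from -0.049 to 0.045 for ELM1 from 150 to 210 min. The cause of these shifts was not tested.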
